A study of Rangifer tarandus with 4 samples.

Results

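The genes described here are the WNT ligands, their Frizzled receptors, the LRP6 co-receptor, the secreted antagonists of the SFRP and DKK families, and the R-spondins with their LGR receptors. They were chosen by symbol from the protein-coding genes of the annotation deposited for the series: WNT with a number and an optional A or B, FZD with a number, SFRP, DKK or RSPO with a digit, LRP5 or LRP6, and LGR4 to LGR6. This rule took 45 of 21861 protein-coding genes, of which 19 were WNT, 10 FZD, 4 SFRP, 4 DKK, 4 RSPO and 3 LGR genes, with LRP6 as the last. LRP5 was not matched by symbol and is not analysed here.

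WNT proteins are secreted, lipid-modified signals that bind the cysteine-rich domain of Frizzled receptors, which cross the membrane several times. Together with the co-receptors LRP5 and LRP6 they stabilise beta-catenin, which then acts with TCF and LEF factors on target genes; other WNT signals act on cell polarity and movement. SFRP proteins carry a Frizzled-like domain and bind WNTs, and some DKK proteins, such as DKK1, bind the co-receptors. R-spondins act through LGR4, LGR5 and LGR6 to keep Frizzleds at the cell surface. In skin the pathway is known for its part in hair follicle formation and in repair.

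In the series, single-cell 3′ RNA libraries were made from mononuclear blood cells of Rangifer tarandus, the reindeer, 3 days after a wound. Blood came from the saphenous vein (back, 2 libraries) or the distal antler velvet (antler, 2 libraries), with 12000 cells loaded per library; the labels name no genotype, treatment or age. No cell's RNA counts entered the work described here, and expression, depth and the contrast of antler with back are not analysed here. The values below are properties of cattle (Bos taurus) gene models on the assembly ARS-UCD1.2, with coordinates counted from 1, and belong to no sample; how the models relate to reindeer genes was not tested. Gene models are not replicates, so classes are set side by side by counts, medians and ranges, without a test. Models can hold errors, which were not tested.

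The WNT genes were all split into several coding exons, whereas 6 of 10 Frizzled genes had a coding sequence in 1 piece. Counted in the transcript with the longest coding sequence, WNT genes had 3 to 6 coding exons with a median of 4, and Frizzled genes had 1 to 7 with a median of 1. Over all 45 members the share with a single coding exon was 13.3% (6 genes, all Frizzleds), near the 14.4% of all protein-coding genes; among protein-coding genes with a symbol it was 6.63%. LRP6 had 23 coding exons, LGR4, LGR5 and LGR6 had 18 each, the 4 R-spondins had 5 each, DKK genes had 3 to 7 and SFRP genes had 3 or 6. The WNT and Frizzled ranges overlapped, because FZD3, FZD6 and FZD9 had as many coding exons as WNT genes or more.

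**Figure D1:**
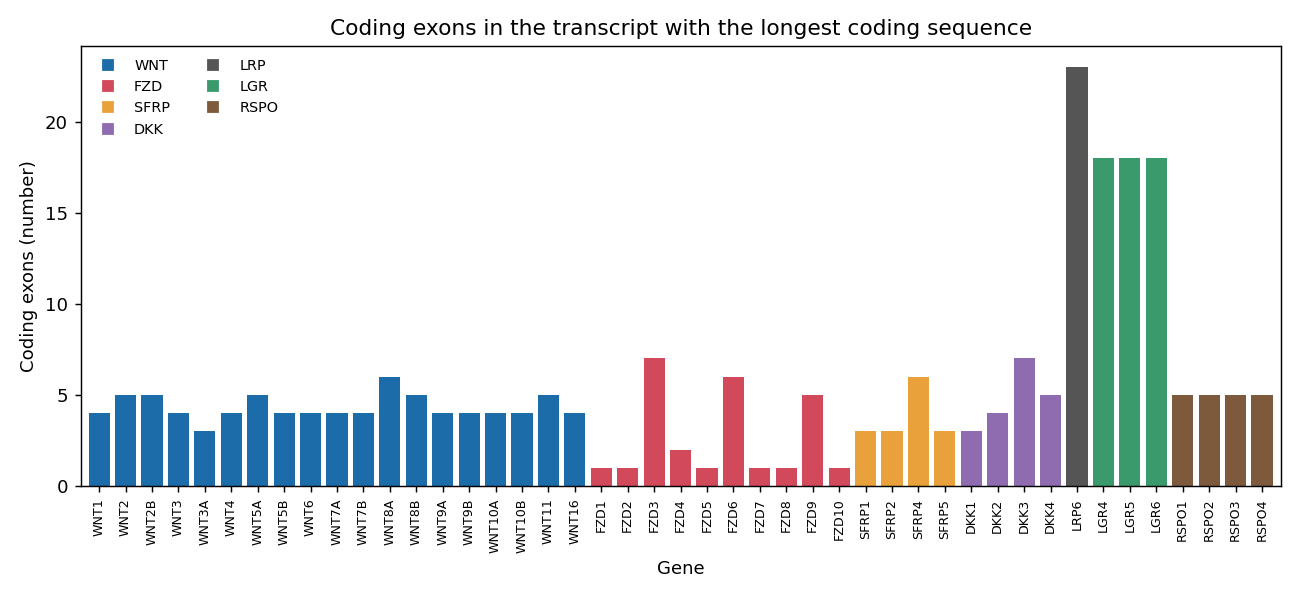
Number of coding exons (vertical axis) of each of the 45 genes (horizontal axis), coloured by class. The 6 bars at 1 are Frizzled genes, WNT genes lie between 3 and 6, and LRP6 is the highest with 23.

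The single-exon Frizzleds were compact. FZD5 (ENSBTAG00000020957, chromosome 2, 96039164 to 96040921, minus strand) spanned 1.76 kb and FZD8 (ENSBTAG00000052989, chromosome 13, 26785273 to 26787345, minus strand) spanned 2.07 kb; in both, coding bases made up 99.8% or more of the gene, and neither had an untranslated region (UTR). FZD2 (chromosome 19, 44328506 to 44330388, plus strand) spanned 1.88 kb and FZD10 (chromosome 17, 46932749 to 46934705, minus strand) spanned 1.96 kb. FZD7 (chromosome 2, 90571270 to 90573476, plus strand) spanned 2.21 kb. FZD1 (chromosome 4, 8665915 to 8670064, plus strand) was the longest of the 6 with 4.15 kb, of which 46.6% was coding, beside a 3′ UTR of 1772 bases. All 6 models consist of 1 exon in all, without an intron in either UTR.

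The other 4 Frizzleds carried introns. FZD4, the receptor that also binds Norrin, had 2 coding exons split by a phase 0 intron of 2162 bases before codon 96 (chromosome 29, 8618154 to 8623002, plus strand). FZD3 and FZD6, known in mouse for tissue polarity, were the long members of the family: FZD3 (chromosome 8, 10150817 to 10238564, minus strand) spanned 87.7 kb with 7 coding exons, and FZD6 (chromosome 14, 61176627 to 61212948, minus strand) spanned 36.3 kb with 6. Their first introns fell at like places: in phases 0, 2 and 0, at codons 64, 129 and 469 of FZD3 and at codons 60, 125 and 465 of FZD6. The phase says after which base of a codon an intron lies, with 0 between codons, 1 after the first base and 2 after the second; a phase 0 intron is placed at the codon that follows it. The shorter FZD3 transcript, of 666 codons, had the same 5 phases in order as FZD6 (0, 2, 0, 2 and 2), while the longer one, of 683 codons, had a further phase 0 intron at codon 486.

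The FZD9 model was unlike those of FZD3 and FZD6. It (ENSBTAG00000051341, chromosome 25, 33728953 to 33736376, minus strand) had 5 coding exons of 87, 459, 826, 114 and 86 bases, with introns in phases 0, 0, 1 and 1, and no UTR. Its 524 codons were the fewest among the Frizzleds. Its introns measured 989, 67, 72 and 4721 bases in order. The coding exon of 86 bases at its 3′ end lay inside the body of BAZ1B on the opposite strand, with which FZD9 shared 89 exon bases. In human, FZD9 is known as a gene without introns in its coding sequence; whether the cattle model or the gene itself differs was not tested.

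Frizzled coding sequences were longer than WNT coding sequences, yet their genes were mostly shorter. Frizzleds had 524 to 714 codons (median 583) and WNTs had 333 to 585 (median 362); without WNT4, the longest, the WNT genes ended at 472 codons and the classes did not overlap. The median span was 3.18 kb for Frizzled genes and 14.6 kb for WNT genes, against 14.0 kb for all protein-coding genes and 21.0 kb for those with a symbol. Coding bases filled a median of 62.3% of a Frizzled gene and 8.42% of a WNT gene. The median was 8.44% over all protein-coding genes and 6.56% over those with a symbol. The spans of the classes overlapped: FZD3, with 87.7 kb, exceeded every WNT gene, and WNT1 (3.08 kb) and WNT8B (3.95 kb) were shorter than FZD1.

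**Figure D2:**
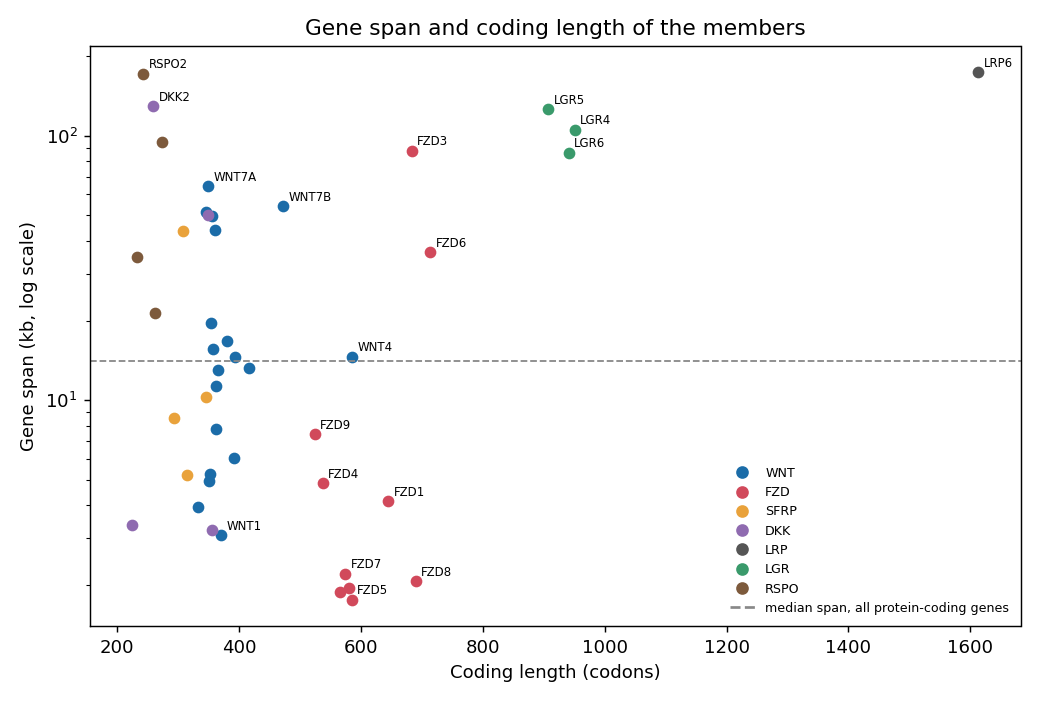
Gene span in kb on a log scale (vertical axis) against coding length in codons (horizontal axis) for the 45 genes, coloured by class, with the median span of all protein-coding genes (14.0 kb) as a dashed line. Single-exon Frizzleds lie at the bottom between 1.76 and 4.15 kb, and RSPO2, DKK2 and LRP6 lie at the top.

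Among WNT genes the span ran from 3.08 kb in WNT1 to 64.2 kb in WNT7A. WNT1, a signal of the midbrain and hindbrain border, and WNT8A and WNT8B, which act early in embryos, were among the 4 shortest genes at 3.08, 4.95 and 3.95 kb, the fourth being WNT9B at 5.24 kb. WNT7A, a limb patterning signal, and its paralogue WNT7B spanned 64.2 and 54.1 kb, and WNT3A, WNT3 and WNT2 spanned 51.6, 49.7 and 44.1 kb. These 5 genes were set apart from the rest, since the next, WNT11, spanned 19.7 kb. Single introns made up much of the long genes: WNT3 had a first intron of 44.0 kb, WNT7A a last coding intron of 41.7 kb and WNT3A an intron of 38.5 kb. WNT5A and WNT5B, signals of cell movement and limb outgrowth, spanned 16.8 and 15.6 kb, close to the median. WNT2B and WNT4 (14.6 kb each), WNT10A (13.3 kb), WNT6 (13.0 kb) and WNT16 (11.3 kb) lay there too, and WNT9A (7.80 kb) and WNT10B (6.03 kb) fell below.

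The introns of most WNT coding sequences repeated 1 scheme. In 15 of 19 WNT genes, introns of phases 2, 1 and 0 followed each other, and all 19 had the step from phase 1 to phase 0. The place of this step differed: its phase 1 intron lay 202 codons before the end in WNT4 and 228 in WNT8A and WNT8B. How many of all protein-coding genes hold that shorter step was not counted. The phase 0 intron lay 152 to 165 codons before the end in those 15 genes, a range of 13 codons. Counted from the first codon it ranged over 123 codons, or over 62 (191 to 253) without WNT7B, whose longest coding sequence starts far ahead of the others. The phase 1 intron lay 245 to 291 codons before the end (median 249), and the phase 2 intron 325 to 379 codons before it (median 332). For these, the ranges of 46 and 54 codons from the end were close to those of 38 and 52 codons from the start, without WNT7B in both counts. Over all protein-coding genes with at least 3 coding introns, 21.5% held this succession somewhere, whatever their number of introns. Of the 12 WNT genes with exactly 3 coding introns, 11 had phases 2, 1 and 0, against 3.57% of all genes with 3 coding introns (57 of 1598). That background includes the 11 WNT genes, and 46 of the 57 were other genes. The scheme was noticed in these models and then counted, and its share is a description.

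**Figure D3:**
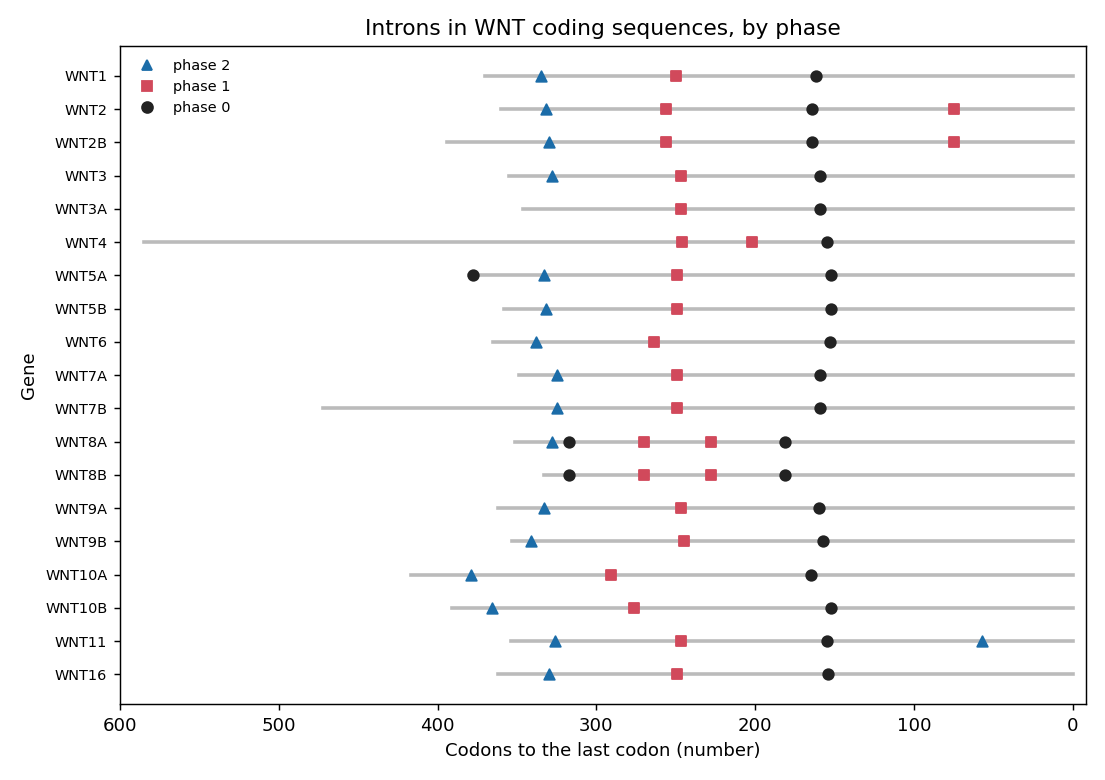
Coding introns of the 19 WNT genes (rows), placed by the number of codons to the last codon (horizontal axis, end of the coding sequence on the right) and marked by phase; the grey line is the coding sequence. Phase 0 introns stand in a column at 152 to 165 codons in 17 genes and at 181 codons in WNT8A and WNT8B.

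Named paralogues among the WNTs shared intron sites to the base, counted from the end. WNT7A and WNT7B had all 3 introns at the same phase and distance, at 325, 249 and 159 codons before the end, although WNT7B had 472 codons and WNT7A 349. A second WNT7B transcript had 349 codons as well. WNT2 and WNT2B shared 3 of 4, among them a phase 1 intron 75 codons before the end, found in no other WNT gene. WNT8A and WNT8B shared 4 introns, at 317, 270, 228 and 181 codons, at none of which another WNT gene had an intron. WNT3 and WNT3A shared 2 (247 and 159 codons), as did WNT5A and WNT5B (249 and 152 codons). Such matches were not limited to paralogues, since the phase 1 intron lay 249 codons before the end in WNT5A, WNT5B, WNT7A, WNT7B and WNT16. WNT9A with WNT9B and WNT10A with WNT10B shared the order of phases but 0 sites to the base: the phase 0 intron lay 160 and 157 codons before the end in the first pair, and 165 and 152 codons in the second. Intron length did not follow the sites, as the phase 2 intron ranged from 122 bases in WNT10B to 44.0 kb in WNT3.

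The 4 WNT genes without the full succession were WNT3A, WNT4, WNT8A and WNT8B. WNT4, a signal of kidney and female reproductive tract development, had the longest coding sequence with 585 codons (ENSBTAG00000051083, chromosome 2, 130696821 to 130711436, plus strand). Its first coding intron, of phase 1, fell in codon 339 but 246 codons before the end. This is within the 245 to 291 codons of the 15 genes with the full succession. No coding intron lay before it, and the WNT4 model also held a phase 1 intron of 118 bases 202 codons before the end. Whether the WNT4 gene or only its model has 585 codons was not tested. WNT3A had 2 transcripts of 346 codons each; the one used, with more exon bases, lacked the phase 2 intron, and the other held a phase 0 intron 342 codons before the end. In WNT11, a signal of cell movement in early embryos, a phase 2 intron 57 codons before the end came in addition to the scheme. The transcripts used for WNT8B, WNT9A and WNT9B had no annotated start codon, so their coding length and positions counted from the start are those of the annotated part. A shorter WNT9A transcript, of 295 codons, and a shorter WNT9B transcript, of 347 codons, did have one.

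Of the 19 WNT genes, 8 formed 4 linked pairs, with gene bodies at most 100 kb apart and no annotated gene between. Of the 21880 genes in the annotation 21861 are protein-coding, so genes of other kinds could lie between unseen. WNT1 (chromosome 5, 30832513 to 30835596, minus strand) and WNT10B (30841487 to 30847512, plus strand) lay head to head, 5.89 kb apart. WNT6 (chromosome 2, 106822087 to 106835094) and WNT10A (106842324 to 106855593) followed each other on the plus strand, 7.23 kb apart. WNT9B (chromosome 19, 45336095 to 45341333, minus strand) and WNT3 (45384549 to 45434296, plus strand) lay head to head, 43.2 kb apart. WNT3A (chromosome 7, 3035810 to 3087361, minus strand) and WNT9A (3155441 to 3163239, plus strand) lay head to head, 68.1 kb apart. Every pair joined a WNT9 or WNT10 gene to a WNT of another number, and 3 of the 4 pairs were transcribed away from each other. A limit of 1000 kb gave the same count of 4 pairs, and over all 45 members it added only SFRP1 and DKK4, 963 kb apart with 13 genes between.

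**Figure D4:**
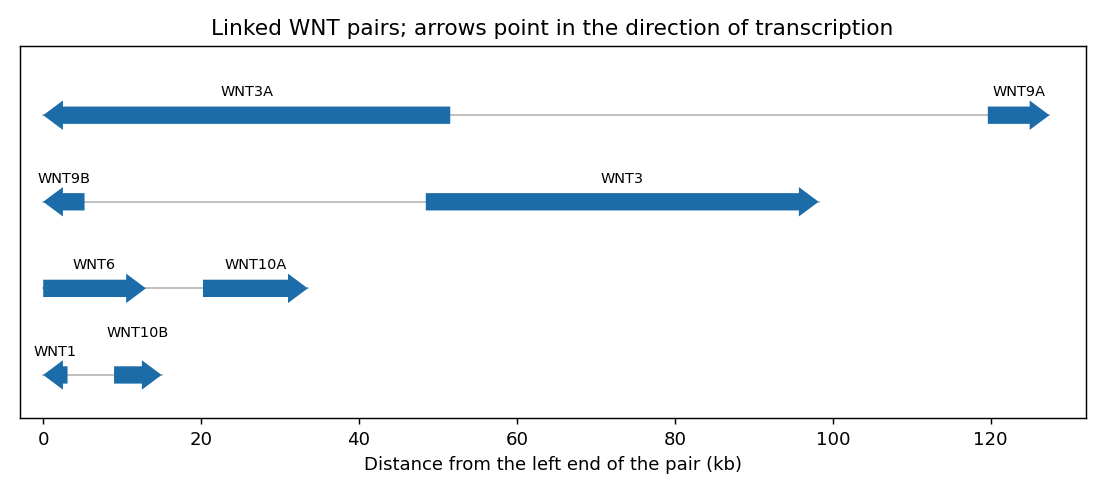
The 4 linked WNT pairs drawn to scale in kb from the left end of each pair (horizontal axis), with arrows as gene bodies pointing in the direction of transcription. Only WNT6 and WNT10A point the same way, and the pair of WNT1 and WNT10B is the shortest, at 15.0 kb in all.

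Linked genes did not form a class of their own by size. The median span was 10.4 kb in the 8 linked and 15.6 kb in the 11 unlinked WNT genes, with ranges of 3.08 to 51.6 kb and 3.95 to 64.2 kb that overlapped. Partners differed in span in the wider pairs, where WNT3 had 49.7 kb beside WNT9B with 5.24 kb and WNT3A had 51.6 kb beside WNT9A with 7.80 kb. WNT6 and WNT10A were alike at 13.0 and 13.3 kb, and WNT1 and WNT10B measured 3.08 and 6.03 kb. The neighbours of 2 further WNT genes also resembled each other by name. WNT2 (chromosome 4, 51105613 to 51149684, plus strand) lay tail to tail with ST7, 16.1 kb away, and WNT2B (chromosome 3, 30790883 to 30805442, minus strand) lay over its whole 14560 bases inside the body of ST7L on the opposite strand, sharing 0 exon bases with it. ARF1 followed WNT3A on its strand after 16.2 kb, and ARF3 followed WNT10B after 8.17 kb. These neighbours were picked after their names were seen.

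The 45 genes lay on 19 chromosomes and none on an unplaced scaffold. Chromosome 5 held 6 of them (WNT1, WNT5B, WNT7B, WNT10B, LRP6 and LGR5) and chromosome 2 held 5 (WNT4, WNT6, WNT10A, FZD5 and FZD7). The next gene downstream on the same strand was 3.69 kb (CCDC34 after LGR4) to 1140 kb away, with a median of 102 kb. It lay within 10 kb of 3 members, LGR4, WNT6 and WNT10B. These distances were not taken for all protein-coding genes, so they do not show whether members lie unusually far apart or close. Apart from WNT2B and FZD9, the member whose body met another annotated gene was DKK2, with an unnamed gene (ENSBTAG00000054885) of 1193 bases on the opposite strand inside it. Distances and overlaps cover only genes of the annotation, nearly all of them protein-coding.

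Among the antagonists, SFRP1, SFRP2 and SFRP5 each had 3 coding exons, with both introns in phase 1, an arrangement held by 16.3% of all genes with 2 coding introns. Their first intron lay in codons 176, 167 and 175 and the second in codons 202, 194 and 201. SFRP4 had 6 coding exons in phases 1, 1, 1, 2 and 0, the same phases as FRZB, a related antagonist, whose introns lay at codons 160, 176, 198, 266 and 288 against 149, 176, 198, 264 and 286 in SFRP4. The spans were 43.6 kb for SFRP1, 8.57 kb for SFRP2, 10.3 kb for SFRP4 and 5.20 kb for SFRP5.

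The DKK genes ranged from 3.23 kb in DKK1 to 129 kb in DKK2, where a single intron of 123 kb followed the first coding exon. DKK4 spanned 3.39 kb. DKK2 and DKK4 had phases 0, 1 and 1 in their first 3 coding introns, 185, 134 and 82 codons before the end in DKK2 and 188, 137 and 89 in DKK4; the last DKK4 intron, of phase 0, lay 8 codons before the end. DKK3, a divergent member, had 7 coding exons over 49969 bases, with 349 codons. DKK1, an inhibitor that binds LRP6 (ENSBTAG00000014218, chromosome 26, 6846290 to 6849518, minus strand), had 2 transcripts. That of 265 codons had phases 0, 1 and 1, at 184, 131 and 83 codons before the end, near the sites of DKK2, and that of 355 codons had phases 0 and 0. Of 795 coding bases that both DKK1 transcripts used, 552 were read in different frames. In each of the 16 other additional transcripts of members, the shared coding bases were all read in 1 frame.

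Within the R-spondins, and within their receptors, the number and phases of coding introns were the same in the transcripts used. All additional transcripts of LGR6 and some of LGR4 had 17 coding exons, against 18 in the transcripts used. Spans differed more among the R-spondins than among the receptors. All 4 coding introns of RSPO1, RSPO2, RSPO3 and RSPO4 were in phase 1, against 5.44% of all genes with 4 coding introns. Their coding sequences measured 262, 243, 273 and 232 codons, and their spans 21.4, 172, 94.7 and 34.7 kb. LGR4, LGR5 and LGR6 each had 17 coding introns, 15 of phase 2 followed by 2 of phase 1. Phase 2 thus held 88.2% of LGR coding introns, against 22.4% over all protein-coding genes. In each of the 3 genes, 9 of the 16 steps between neighbouring introns measured exactly 72 coding bases, or 24 codons; leucine-rich repeats, of which the outer part of these receptors consists, are units of about that kind. The spans were 105 kb for LGR4, 126 kb for LGR5, a marker of intestinal and hair follicle stem cells, and 86.2 kb for LGR6. LRP6 (ENSBTAG00000011761, chromosome 5, 97526603 to 97700083, plus strand) was the longest member, with 173 kb and 1613 codons.

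Because 3′ libraries sample the ends of messages, the UTRs of the models were compared. A 3′ UTR of at least 1 base was annotated for 36 of 45 members, or 80%, close to the 79.8% of genes with a symbol and above the 65.5% of all protein-coding genes. Genes with a symbol are the nearer comparison, since members were found by symbol. By class, a 3′ UTR was present in 16 of 19 WNT, 7 of 10 FZD, 4 of 4 SFRP, 3 of 4 DKK, 3 of 3 LGR and 3 of 4 RSPO genes, and LRP6 had none. A 5′ UTR was present in 32 members, or 71.1%, against 66.4% of all and 80.6% of symbol-carrying protein-coding genes. No UTR at either end was annotated for 8 members, or 17.8%, against 28% of all genes and 12.7% of those with a symbol: WNT8A, WNT8B, WNT9B, FZD5, FZD8, FZD9, DKK4 and RSPO4.

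The 3′ UTR lengths of WNT and Frizzled genes overlapped. Where annotated, the longest 3′ UTR over transcripts had a median of 699 bases in WNT genes (8 to 3316 bases) and 423 bases in Frizzled genes (145 to 1772 bases). The median was 626 bases over all genes that had one and 649 bases over those with a symbol. WNT5B had the longest with 3316 bases, followed by SFRP1 with 3103, WNT7B with 2252, WNT4 with 2240 and LGR4 with 2202 bases. The shortest were those of WNT3 (8 bases), WNT1 (37 bases) and LGR6 (74 bases). Some paralogues differed widely: WNT5A had 902 bases beside 3316 in WNT5B, WNT7A had 128 beside 2252 in WNT7B, and WNT3 had 8 beside 886 in WNT3A. Others were closer, with 555 bases in WNT2 and 631 in WNT2B, and 620 in WNT10A and 736 in WNT10B. The 3′ UTRs of WNT9A and SFRP5 both measured exactly 1000 bases, a length found in 550 genes.

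**Figure D5:**
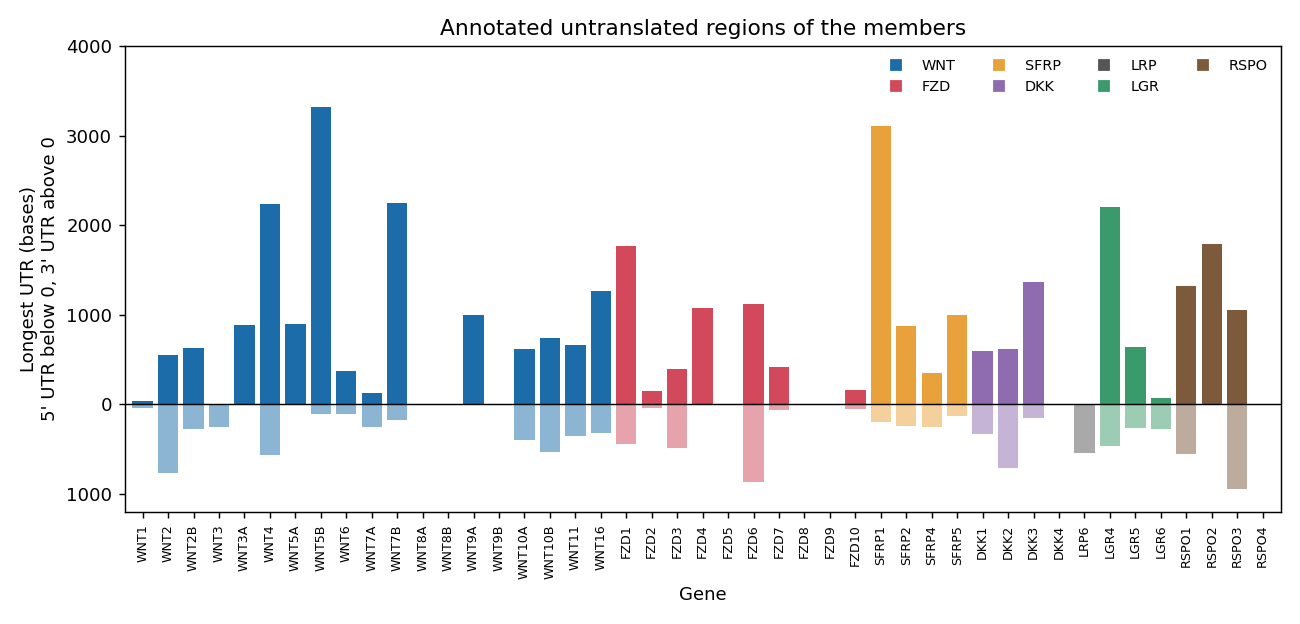
Longest annotated 3′ UTR (bars above 0, full colour) and 5′ UTR (bars below 0, pale) of each of the 45 genes in bases, coloured by class. Empty places are genes without either, such as FZD5, FZD8 and FZD9, and the tallest bars are WNT5B (3316 bases) and SFRP1 (3103 bases).

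Some UTRs came from transcripts other than the one with the longest coding sequence, which had none at that end. This held for the 3′ UTRs of WNT9A, whose 1000 bases sit on a transcript of 295 codons, and of FZD3, whose 391 bases sit on the transcript of 666 codons, and for the 5′ UTR of LGR4 (463 bases). In 3 further genes the transcript used had a shorter UTR than another one: 359 against 601 bases at the 3′ end of DKK1, and 71 against 177 and 394 against 548 bases at the 5′ ends of WNT7B and RSPO1. Introns inside a UTR were annotated in 7 of 45 members; the share over all protein-coding genes was not counted. WNT3A had an intron of 842 bases after its coding sequence. Before the coding sequence, WNT10B had 2 introns, and WNT11, FZD3, DKK3 and RSPO1 had 1 each in the transcript used, the longest being 8365 bases in FZD3; second transcripts of FZD6 and RSPO1 had 1 each, of 1103 and 5508 bases. A single transcript was annotated for 33 members, or 73.3%, against 62.3% of all protein-coding genes and 53.9% of those with a symbol.

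Other genes of the pathway were taken from a list of 63 symbols, of which 61 were matched; the symbols TRABD2A and PYGO2 had no match and are left out. A 3′ UTR was annotated for 48 of the 61 (78.7%), close to the 79.8% of protein-coding genes with a symbol. A 5′ UTR was annotated for 52 (85.2%), against 80.6% of genes with a symbol. A single coding exon was found in 0 of the 61, against 6.63% of genes with a symbol. The 3 listed genes that add or remove the WNT lipid or carry WNTs to the surface all had a 3′ UTR. The 3′ UTR measured 321 bases in PORCN, which lipid-modifies WNTs, 820 in WLS, the carrier, and 486 in NOTUM, which removes the lipid. It was lacking in the receptors MUSK and GPC3, the antagonists CER1, KREMEN2, APCDD1 and TRABD2B, the cytoplasmic genes APC2 and NKD2, the nuclear genes PYGO1 and TLE1, and the polarity genes VANGL1, CELSR1 and PRICKLE2. The longest 3′ UTR, of 4337 bases, belonged to AXIN1, a scaffold of the beta-catenin destruction complex, and the shortest, of 40 bases, to ADGRA2, a co-receptor for WNT7 signals. Spans ran from 2.74 kb in CER1 to 463 kb in GPC3. Of 28 pairs of listed genes with near-identical symbols, such as GSK3A and GSK3B, 3 had the same order of intron phases: DVL1 and DVL2 (14 introns), AXIN1 and AXIN2 (9 introns), and TLE2 and TLE3 (19 introns). In 21 pairs the number of coding introns differed, and in 4 it was equal with other phases. Further pairs of unlike symbols, picked after their phases were seen, had the same order: RNF43 and ZNRF3 (8 introns), which remove Frizzleds from the surface, BTRC and FBXW11 (12 introns), and TCF7 and LEF1 (10 introns).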

How the data were processed

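The series holds single-cell 3′ RNA libraries of reindeer blood. By tissue label, 2 came from the saphenous vein (group back) and 2 from the distal antler velvet (group antler). The submitters' processing notes list the tools STAR, Cell Ranger 3 and Seurat but not what each did. No RNA counts were used. The file used was the deposited gene annotation in gene transfer format, of 21880 genes; per the file headers it describes ARS-UCD1.2, with a gene build last updated in 2018. In the deposited file each feature has its first and last base and, where coding, a reading frame, without normalization. The way reindeer reads were assigned to it is not stated there. Depth does not apply to them.

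Each protein-coding gene was represented by its transcript of greatest coding length (ties by more exon bases, then identifier). Coding length leaves out the stop codon. Phase and codon of each intron were summed from the coding segments. A UTR counted from 1 base, as the longest sum of segments over transcripts. Linked pairs had bodies at most 100 kb apart. Background shares include the members. The members and lists were chosen with earlier results of these data known. Every member was to be named, and of other pathway genes those not matched, without 3′ UTR or at the extremes; others were named after their values were seen. No test was made. The reader was tested on simulated data. Alternatives changed the transcript, the exons counted, the minimum UTR or intron (50 bases), the pair distance (50 or 1000 kb), the background and the end counted from. No sequences were used. Python 3.11.15, NumPy 2.4.6 and matplotlib 3.10.9 were used.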

Additional observations from a re-analysis of the deposited data

How the results depend on the processing

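Of 52 comparisons with an alternative setting, 40 kept their value or a count within 1.5 times. Among them were the 6 single-exon Frizzleds, the medians of 4 and 1 coding exons, and all counts of UTRs. Requiring 50 bases left a 3′ UTR in 34 members and a 5′ UTR in 29. Frizzleds with a 5′ UTR fell from 6 to 4 at that limit, a change of 1.5 times. The count of linked pairs was 3 at 50 kb. The other 12 moved. Without genes whose transcript used lacked a start codon, the WNT medians were 15.1 kb and 363.5 codons. With the shortest coding sequence per gene the median was 358 codons. Counted from the first codon, the phase 2, 1 and 0 introns of WNT genes ranged over 135, 123 and 123 codons, against 54, 46 and 13 from the end. Without WNT7B, an alternative chosen after seeing the data, they were 52, 38 and 62 from the start and unchanged from the end, so that only the phase 0 intron had a clearly narrower range from the end. Among genes with a symbol, 6.63% had a single coding exon, 79.8% a 3′ UTR and 80.6% a 5′ UTR. No paired analysis was possible because no value belongs to a sample, and leaving out replicates could not be applied. Model errors, such as a merged or broken exon, were not tested, and a gene listed under another symbol was not found.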
